A study of Mus musculus with 18 samples.

Results

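The transcripts of 31 genes of fatty acid oxidation and ketone body formation were followed in liver and epididymal fat of mice on 3 diets, with 9 Illumina bead arrays for each tissue. The genes were taken from a named list and found on the arrays through the platform's gene annotation, under the current or an older symbol. Of 14422 genes with a probe, 30 were members of the list, with 55 probes, and Decr1 (a mitochondrial dienoyl-CoA reductase) had none here. The mice were C57BL/6J males (1 label field spells the strain C56BL/6J) and were 4 weeks old when they were received. The normal diet group (ND) held 10 mice. The second group (HFD) held 13 mice on a diet of 20% fat and 1% cholesterol, and the other group (LU) held 13 mice on that same diet with luteolin, a plant flavonoid, at 0.005% by weight. Each group stayed on its diet for 16 weeks, and each combination of diet and tissue had 3 arrays. The labels do not state that the arrays of a group were separate animals, and the p-values therefore describe the spread among these arrays, part or all of which may be technical.

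In the cell, long-chain fatty acids enter mitochondria as carnitine esters, and each turn of beta-oxidation then removes an acetyl unit through a dehydrogenase, a hydratase, a second dehydrogenase and a thiolase. Peroxisomes run a parallel pathway for fatty acids that mitochondria handle poorly. The liver turns part of the acetyl-CoA into ketone bodies during fasting, and the nuclear receptor PPAR alpha switches on many of these genes when fatty acids reach the hepatocyte.

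On each array 45281 probes were read, and 15464 to 16998 of them in liver and 19113 to 19852 in fat had a detection p-value below 0.05. A gene was tested in a tissue where a probe was detected on all 3 arrays of at least 1 diet. In liver 29 members passed this filter and in fat 26. Acot2 (a mitochondrial acyl-CoA thioesterase) was not well above background in either tissue, and Cpt1a, Bdh1 and Ppara were not in fat. A member that was detected in 1 diet only entered through that diet, as Cpt1a did in liver. Hepatocyte markers had a summed signal of 369064 to 381923 in ND liver, 370571 to 379516 in HFD liver and 366017 to 376517 in LU liver, with Fgb and Tat of 12 markers undetected in each. At an adjusted p below 0.05, 2 of 10 tested were lower and 0 higher on HFD against ND. The counts were 0 lower and 1 higher on LU against HFD, and 2 lower and 1 higher on LU against ND. Adipocyte markers were all detected in fat. Since whole tissue was measured, fewer cells of a type and less RNA per cell cannot be told apart. All levels below are log2 normalised signals, differences are on the log2 scale with the SE of the limma fit, and a member is said to rise or fall where the p-value adjusted over all genes of the fit was below 0.05.

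In liver on the high-fat diet, 0 of the 29 members tested rose, 12 fell and 17 did not pass. The background was 17.9% of 8937 genes higher and 12.4% lower. The median member difference was -0.18 against 0.00 over all genes. The largest decreases were in Pdk4, Fgf21, Cpt1a, Hadha, Crat and Acot1, while Cpt2, Slc25a20 and Cpt1b of the carnitine shuttle did not pass. With luteolin added, 8 members fell against HFD and 0 rose, where 8.66% of all genes were lower and 8.41% higher, and the median member difference was -0.11 against 0.03. LU against ND gave 14 members lower and 0 higher (Cpt1a, detected on ND only, is counted here and among the 12 above, having entered through the diet in which it is high), where 17.4% of all genes were lower and 23.7% higher. LU against HFD and HFD against ND share the HFD arrays, so their values are given side by side and not set against each other.

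Pdk4, the kinase that blocks pyruvate dehydrogenase and so spares glucose when fat is burned, showed the largest decrease of the members. Its level was 11.25, 11.59 and 11.69 on the ND arrays, 9.56, 9.44 and 9.22 on the HFD arrays and 8.75, 8.61 and 8.60 on the LU arrays. The 3 diets did not overlap, with ND highest and LU lowest. The decrease was -2.10 ± 0.12 for HFD against ND (4.29-fold, adjusted p = 9.95e-06), -0.75 ± 0.12 for LU against HFD (adjusted p = 0.00582) and -2.85 ± 0.12 for LU against ND (7.23-fold, adjusted p = 2.06e-06).

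Fgf21, a hormone that liver releases in fasting under PPAR alpha, stood at 11.48, 11.81 and 12.03 on ND, 10.10, 10.55 and 10.55 on HFD and 9.76, 9.53 and 10.36 on LU. Every HFD and LU array lay below every ND array, while HFD and LU overlapped. The difference was -1.37 ± 0.22 for HFD against ND (adjusted p = 0.0021) and -1.89 ± 0.22 for LU against ND (adjusted p = 0.000241). Against HFD the LU value was -0.52 ± 0.22, which did not pass (adjusted p = 0.139).

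Acot1, a cytosolic thioesterase that frees long-chain fatty acids from coenzyme A, had levels of 14.94, 14.73 and 14.92 on ND, 14.27, 13.98 and 14.01 on HFD and 13.22, 13.54 and 13.37 on LU. The diets again did not overlap and stood in the order ND, HFD, LU. The difference was -0.78 ± 0.11 for HFD against ND (adjusted p = 0.0011) and -0.71 ± 0.11 for LU against HFD (adjusted p = 0.00479), and a second, dimmer probe gave -1.24 ± 0.11 and -1.15 ± 0.11. Acot1 and Acot2 are close relatives, so a share of the Acot1 signal could come from related transcripts. Ppara itself, the receptor, read 9.50, 9.54 and 9.64 on ND, 9.30, 9.15 and 9.33 on HFD and 9.18, 9.06 and 9.17 on LU. It fell by 0.30 ± 0.08 on HFD against ND (adjusted p = 0.0173) and by 0.42 ± 0.08 on LU against ND (adjusted p = 0.00217), and LU against HFD gave -0.13 ± 0.08 (adjusted p = 0.272). The HFD decrease of Ppara lost its call without ND liver 3 or HFD liver 2 (adjusted p 0.0538 to 0.0637) and under median scaling (-0.16).

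Of the carnitine shuttle, Cpt1a, the outer-membrane transferase that sets the rate of entry in liver, was detected on the 3 ND arrays only. Its levels were 6.86, 6.78 and 6.68 on ND, 5.73, 5.34 and 5.64 on HFD and 5.65, 5.84 and 5.70 on LU, so HFD and LU have only a bound. Cpt1a was at least 1.91-fold lower on HFD than on ND (adjusted p = 0.000105) and at least 1.90-fold lower on LU than on ND (adjusted p = 0.000124). The probe passed the filter through ND, so both p-values carry that selection. This dim probe was designed on a cDNA other than a RefSeq mRNA, and the other Cpt1a probe, designed on the RefSeq mRNA, was undetected on all arrays of both tissues.

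Crat, which moves acetyl units between coenzyme A and carnitine, stood at 12.00, 11.72 and 11.68 on ND, 11.07, 11.10 and 10.87 on HFD and 10.40, 10.60 and 10.67 on LU. The diets did not overlap. Crat fell by 0.79 ± 0.11 on HFD against ND (adjusted p = 0.00102) and by 0.46 ± 0.11 on LU against HFD (adjusted p = 0.0241), and a dimmer probe gave -0.71 ± 0.19 for the former. For LU against HFD that probe, detected on 1 of 3 LU arrays, gave -0.99 ± 0.19, and the remaining probe was undetected on both diets. The LU call was lost when HFD liver 1 or 2, or LU liver 1 or 2, was left out (adjusted p 0.0529 to 0.0761). Slc25a20, the carnitine-acylcarnitine translocase of the inner membrane, fell in LU against ND (-0.26 ± 0.08, adjusted p = 0.0236) and did not pass in the other comparisons, whereas its dimmer probe passed in all 3, with -0.25 ± 0.08 for HFD against ND, -0.81 ± 0.08 for LU against HFD and -1.06 ± 0.08 for LU against ND. The call of the brighter probe was lost without ND liver 1 or 2 or LU liver 1 (adjusted p 0.0539 to 0.0870). Cpt2, the inner-membrane transferase, and Cpt1b, the transferase isoform of muscle, gave values between -0.11 and 0.06 over the 3 comparisons and did not pass, while a dimmer Cpt1b probe gave -0.64 ± 0.16 for LU against HFD.

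Inside the mitochondrion the decreases fell on some steps and not on others. Acadl, the long-chain acyl-CoA dehydrogenase, had levels of 10.44, 10.61 and 10.51 on ND, 10.20, 10.18 and 10.19 on HFD and 9.66, 9.77 and 9.56 on LU. The diets did not overlap, and the differences were -0.33 ± 0.08 for HFD against ND (adjusted p = 0.0102) and -0.53 ± 0.08 for LU against HFD (adjusted p = 0.00362). Its second probe gave -0.36 ± 0.07 for the former and -0.02 ± 0.07 for the latter, so the LU decrease rests on 1 probe. Under median scaling the HFD difference was -0.22 (adjusted p = 0.0681). Acadvl, which acts on very long chains, read 13.24, 13.30 and 13.28 on ND, 13.06, 13.09 and 13.06 on HFD and 13.13, 13.13 and 13.16 on LU. It fell by 0.20 ± 0.06 on HFD (adjusted p = 0.0243; second probe -0.16 ± 0.08), a call that ended without ND liver 2 or 3 or any 1 HFD array (adjusted p 0.0540 to 0.0686). Acadm and Acads, the medium-chain and short-chain enzymes, did not pass in any of the 3 comparisons, although a dimmer Acads probe gave -0.37 ± 0.08 for LU against HFD.

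Hadha, the subunit of the trifunctional protein that carries the hydratase and the long-chain hydroxyacyl-CoA dehydrogenase, stood at 9.74, 9.64 and 9.24 on ND, 8.52, 8.43 and 8.61 on HFD and 8.78, 8.83 and 8.91 on LU. HFD was below LU and LU below ND on every array. Hadha fell by 1.02 ± 0.12 on HFD against ND (adjusted p = 0.00046) and by 0.70 ± 0.12 on LU against ND (adjusted p = 0.00172), and LU against HFD was 0.32 ± 0.12 (adjusted p = 0.101). Its 1 probe was designed on a cDNA other than a RefSeq mRNA. Hadhb, the thiolase subunit of the same protein, read 11.34, 11.10 and 11.05 on ND and 10.987, 10.730 and 11.001 on HFD, a difference of -0.26 ± 0.11 that did not pass (adjusted p = 0.0976). On LU it read 11.07, 10.84 and 10.94, which overlapped both other diets.

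Acaa2, the mitochondrial thiolase, had levels of 13.65, 13.65 and 13.64 on ND, 13.45, 13.50 and 13.43 on HFD and 13.03, 13.15 and 12.99 on LU. It fell by 0.41 ± 0.06 on LU against HFD (adjusted p = 0.00479) and by 0.59 ± 0.06 on LU against ND (adjusted p = 0.000159). Of its other 3 probes in liver, 2 gave -0.49 ± 0.07 and -0.43 ± 0.07 for LU against HFD and 1 gave 0.15 ± 0.08, so the probes disagree. For HFD against ND the probe used gave -0.18 ± 0.06 (adjusted p = 0.0544), and the other 3 passed at -0.23 to -0.35. Etfdh, which passes electrons from the flavoprotein ETF to ubiquinone, read 13.18, 13.06 and 13.04 on ND, 12.85, 12.84 and 12.84 on HFD and 12.36, 12.35 and 12.33 on LU. The diets did not overlap, with differences of -0.25 ± 0.06 for HFD against ND (adjusted p = 0.0136) and -0.50 ± 0.06 for LU against HFD (adjusted p = 0.00222). A second Etfdh probe gave -0.92 ± 0.11 and 0.14 ± 0.11, and the remaining one, undetected on LU, gave -0.58 ± 0.07 for HFD against ND. Etfb, the beta subunit of ETF, fell by 0.18 ± 0.06 on HFD (adjusted p = 0.0402), a call lost under leaving out any 1 of 8 arrays, all but LU liver 3 (adjusted p 0.0548 to 0.108). The alpha subunit Etfa, the short-chain hydratase Echs1, the isomerases Eci1 and Eci2 and the short-chain dehydrogenase Hadh did not pass in liver in any of the 3 comparisons. A dimmer probe of Echs1 (-0.41 ± 0.10 for HFD against ND) passed when every probe was tested. So did a dimmer Hadh probe, which was higher on LU than on HFD (0.82 ± 0.19, adjusted p = 0.0162) and also higher on LU than on ND. It was detected on 0 of 3 ND, 1 of 3 HFD and 3 of 3 LU arrays and entered through LU, where it is high.

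Of the 5 peroxisomal members, Ehhadh and Decr2 fell with luteolin. Ehhadh, the bifunctional hydratase and dehydrogenase of peroxisomal oxidation, stood at 12.37, 11.43 and 12.45 on ND, 12.18, 11.83 and 12.22 on HFD and 10.84, 10.96 and 11.26 on LU. All LU arrays lay below all others, and 1 ND array lay well below the other two. The difference was -1.06 ± 0.25 for LU against HFD (2.08-fold, adjusted p = 0.0214) and -0.01 ± 0.25 for HFD against ND, and the former lost its call when HFD liver 1 or 3, or LU liver 1 or 2, was left out (adjusted p 0.0590 to 0.0697).

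Decr2, the peroxisomal reductase for unsaturated chains, read 11.67, 11.71 and 11.58 on ND, 11.39, 11.48 and 11.37 on HFD and 10.80, 10.75 and 10.71 on LU. It fell by 0.66 ± 0.07 on LU against HFD (adjusted p = 0.00108; second probe -0.73 ± 0.09) and by 0.24 ± 0.07 on HFD against ND (adjusted p = 0.0225; second probe -0.14 ± 0.09, which did not pass). The HFD call of Decr2 was also lost without ND liver 1 or 2 or HFD liver 1 or 3 (adjusted p 0.0538 to 0.0748) and under median scaling (-0.18). The thiolases Acaa1a and Acaa1b and Hsd17b4, the other bifunctional enzyme, did not pass in liver. For Acaa1b the array could hardly show a change, since its liver signals before normalisation were 63259 to 68784 and are among the brightest on the arrays. Acaa1a and Acaa1b are near-identical genes whose probes may share transcripts. The ketogenic member Bdh1, which converts acetoacetate and beta-hydroxybutyrate into each other, gave -0.02 ± 0.08 for HFD against ND and 0.14 ± 0.08 for LU against HFD and did not pass. A dimmer Bdh1 probe passed in LU against ND (-0.69 ± 0.21), where the one used gave 0.12 ± 0.08.

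**Figure D1:**
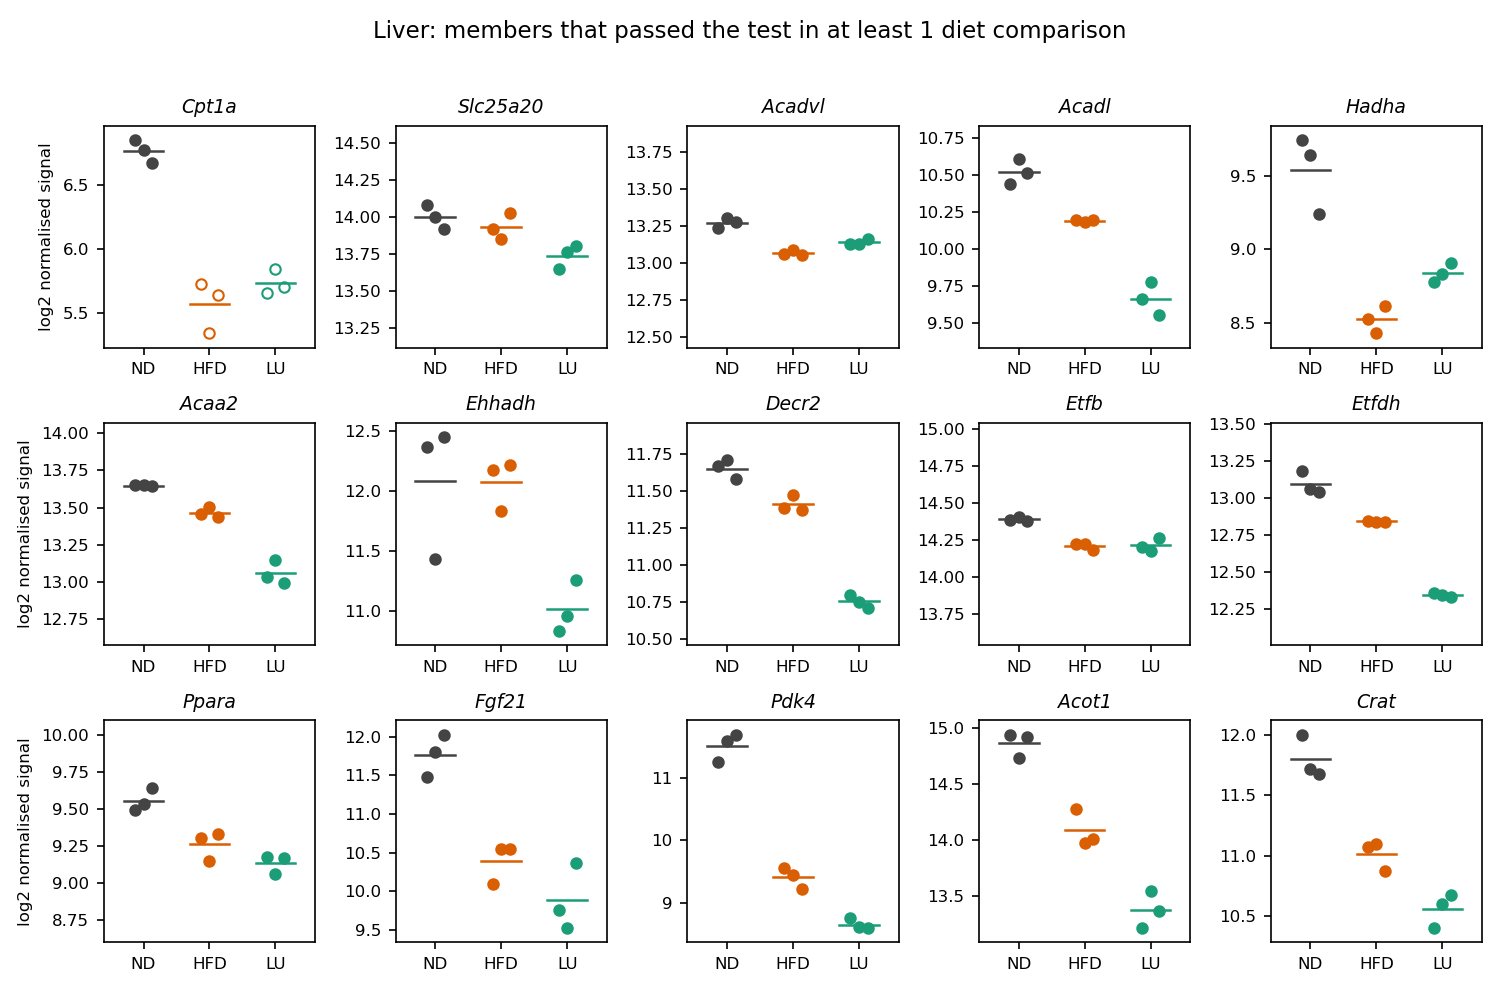
Log2 normalised signal (y axis) of the 15 members that passed the test in liver, 1 panel each, on the 3 arrays of ND, HFD and LU (x axis). Points are arrays, open points are below detection and lines are means, and each y axis has its own range. Pdk4, Acot1, Crat, Acadl, Acaa2, Decr2 and Etfdh are highest on ND and lowest on LU with no overlap, while Hadha is lowest on HFD.

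Groups did not overlap in 14 members lower and 2 higher for HFD against ND in liver (20.9% and 23.8% of all genes), 12 lower and 4 higher for LU against HFD (18.7% and 22.2%) and 17 lower and 2 higher for LU against ND (22.5% and 29.7%). Beside the members, other genes of the pathways were counted from lists. For HFD against ND, 4 of 12 other mitochondrial genes tested were higher and 2 lower, 1 of 15 peroxisomal genes was higher and 5 lower, 2 of 4 ketone body genes were higher and 1 lower, and 4 of 27 PPAR alpha targets and regulators were higher and 12 lower. By size the largest were Cidea, a lipid droplet protein, which was at least 35.1-fold higher on HFD, Acacb, which makes the malonyl-CoA that blocks Cpt1 (-1.86 ± 0.25), the peroxisomal thioesterase Acot3 (-1.65 ± 0.22) and Hacl1 of alpha-oxidation (-1.14 ± 0.09). For LU against HFD the counts were 1 higher and 2 lower of 12 mitochondrial, 1 and 2 of 15 peroxisomal, 0 and 0 of 4 ketone body and 2 and 6 of 27 PPAR alpha genes. Cidea (-2.72 ± 0.22), Hacl1 (-1.03 ± 0.09) and the droplet coat protein Plin2 (-0.87 ± 0.07) were lower and the coactivator Ppargc1b was higher (0.69 ± 0.15). For LU against ND they were 8 higher and 2 lower, 2 and 7, 2 and 1, and 4 and 15, led by Cidea (at least 5.33-fold higher), Acacb (-2.31 ± 0.25), Hacl1 (-2.17 ± 0.09) and Acot3 (-1.77 ± 0.22). Macrophage markers moved in liver too: 8 of 10 rose on HFD and 1 fell, with a summed signal of 6336 to 6766 on ND, 11560 to 14507 on HFD and 12463 to 16577 on LU. Itgax was undetected in all 3 diets. Of 6 endothelial markers 4 rose on HFD and 5 fell on LU against HFD, with a summed signal of 8429 to 8606 on ND, 10421 to 11366 on HFD and 8418 to 8673 on LU. Of 5 Kupffer cell markers tested 1 rose on HFD and 3 fell on LU against HFD, with sums of 7754 to 8707, 9718 to 10216 and 6543 to 9155 and with Cd5l undetected throughout. Of 5 adipocyte markers tested 3 rose and 1 fell on HFD, with Adipoq, Fabp4, Lep, Plin1 and Retn undetected and sums of 17953 to 19588, 22516 to 24516 and 22698 to 23792. Their part in the members' differences was not tested.

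The promoters of the members, whether they fell or not, were read for the element PPAR alpha binds. It is a pair of AGGTCA half-sites in one direction with 1 base between them. In the RefSeq promoter table (GRCm38.p6, 250 bases before the start site) 26 members had an entry. No member held the pair, on either strand, in these windows, nor with AGGNCA for both half-sites; 0.0335% and 0.338% of all 32851 promoters did. A single AGGTCA on either strand, a search added after that result, was found in 4 of 26 members (15.4%), Acadm, Acadvl, Cpt1a and Echs1, against 14.0% of all promoters. The share of members is close to that of all promoters. Shown here are Pdk4, the member with the largest decrease, and Cpt1a, Acadvl and Echs1, which fell in liver or fat and hold the half-site, in capitals (read as its reverse complement in Cpt1a). Acadm holds it too but passed in no diet comparison within a tissue and is not shown. Pdk4, Fgf21, Hadha and Acot1, which fell in liver, do not hold it. The fifth sequence lies between Hadha and Hadhb, the 2 subunit genes, whose start sites are 272 bases apart on opposite strands of chromosome 5, and covers the 250 bases next to the Hadhb start.
Pdk4, chr6:5496279-5496528, minus strand: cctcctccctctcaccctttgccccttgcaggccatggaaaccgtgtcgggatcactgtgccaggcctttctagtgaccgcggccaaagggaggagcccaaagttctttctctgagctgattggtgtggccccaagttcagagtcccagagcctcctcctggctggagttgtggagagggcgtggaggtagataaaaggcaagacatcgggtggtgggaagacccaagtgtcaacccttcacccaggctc
Cpt1a, chr19:3323051-3323300, plus strand: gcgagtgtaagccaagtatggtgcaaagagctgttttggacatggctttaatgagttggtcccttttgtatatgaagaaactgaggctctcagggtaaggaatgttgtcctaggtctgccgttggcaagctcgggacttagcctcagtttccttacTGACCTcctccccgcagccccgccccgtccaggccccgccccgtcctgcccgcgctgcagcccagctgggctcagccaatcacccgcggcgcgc
Acadvl, chr11:70015429-70015678, minus strand: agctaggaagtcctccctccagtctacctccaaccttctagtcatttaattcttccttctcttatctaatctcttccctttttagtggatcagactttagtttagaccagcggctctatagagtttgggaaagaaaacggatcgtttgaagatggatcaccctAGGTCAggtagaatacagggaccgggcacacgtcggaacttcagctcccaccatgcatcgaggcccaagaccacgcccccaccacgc
Echs1, chr7:140116422-140116671, minus strand: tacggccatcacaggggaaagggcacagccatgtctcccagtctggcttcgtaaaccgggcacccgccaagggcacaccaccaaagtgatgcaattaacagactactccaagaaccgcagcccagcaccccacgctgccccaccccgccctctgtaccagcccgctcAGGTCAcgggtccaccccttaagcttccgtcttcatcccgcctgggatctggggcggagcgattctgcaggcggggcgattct
Hadha to Hadhb, chr5:30155003-30155252, plus strand: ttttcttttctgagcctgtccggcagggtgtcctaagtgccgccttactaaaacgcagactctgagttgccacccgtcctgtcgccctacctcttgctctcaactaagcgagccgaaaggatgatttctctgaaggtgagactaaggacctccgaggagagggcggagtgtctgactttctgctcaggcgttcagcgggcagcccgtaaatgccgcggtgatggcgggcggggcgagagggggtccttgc
The half-site starts 94 bases before the start site used in Cpt1a, 87 in Acadvl and 83 in Echs1. For Cpt1a that start site lies inside the annotated gene, which begins at base 3322326. Its window is therefore not upstream of the whole gene. Windows of some members not shown, such as Ppara, also lie inside the annotated gene. A match is a description of these letters and was not tested as a site. Although Hadha and Hadhb share this stretch, Hadha fell by 1.02 in HFD liver and Hadhb by 0.26, the latter without passing.

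In fat on the high-fat diet, of 26 members tested, 2 rose, 8 fell and 16 did not pass, on a background of 21.5% of 10240 genes higher and 23.9% lower, with a median member difference of -0.10 against -0.03 over all genes. In LU against HFD, 8 members rose and 0 fell, where 16.3% of all genes were higher and 15.5% lower, with a median of 0.19 against 0.02. As in liver, these 2 comparisons share the HFD arrays, so a fall on HFD and a rise on LU are not independent. In LU against ND, 5 rose and 1 fell (17.6% and 15.6% of all genes). That last count rests on few arrays, since it was 3 without LU fat 1 or LU fat 2. The groups of 8 members lower and 2 higher did not overlap for HFD against ND (28.4% and 24.6% of all genes), of 13 higher and 1 lower for LU against HFD (29.1% and 24.9%), and of 5 higher and 3 lower for LU against ND (24.9% and 23.6%). Read against these shares, 8 of 26 members lower on HFD is close to the background.

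Cpt1b, the carnitine transferase isoform of muscle and adipocytes, showed the largest rise. It stood at 7.40, 7.39 and 7.55 on ND, 8.67, 8.77 and 8.88 on HFD and 8.83, 8.62 and 8.73 on LU. HFD and LU overlapped and lay above every ND array, by 1.33 ± 0.08 (2.51-fold, adjusted p = 3.72e-06) and 1.28 ± 0.08 (2.43-fold, adjusted p = 1.6e-05). A second, dimmer probe was detected on 0 of 3 ND, 2 of 3 HFD and 3 of 3 LU arrays, so its differences are not set against those of the first. Skeletal muscle markers had a summed signal of 268 to 299 in ND fat, 719 to 1079 in HFD fat and 542 to 585 in LU fat, from 5 of 10 markers with a probe, with Tnnt3 undetected in all 3 diets and Actn3 in HFD and LU. Their part in the Cpt1b rise was not tested.

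Crat stood at 11.66, 12.15 and 11.85 on ND, 11.19, 11.31 and 11.22 on HFD and 11.66, 11.55 and 11.72 on LU in fat. HFD lay below both other diets, by 0.65 ± 0.11 against ND (adjusted p = 0.0014), and LU was 0.40 ± 0.11 above HFD (adjusted p = 0.0232). A dim second probe gave -0.51 ± 0.16 and -0.21 ± 0.16, so the rise on LU rests on 1 probe, and it was lost without HFD fat 1 or 3 or LU fat 1 or 3 (adjusted p 0.0558 to 0.0780). Cpt2 read 13.13, 13.26 and 13.31 on ND, 12.76, 13.05 and 12.94 on HFD and 13.27, 13.37 and 13.33 on LU. It fell by 0.32 ± 0.08 on HFD (adjusted p = 0.0125) and rose by 0.41 ± 0.08 on LU against HFD (adjusted p = 0.00655), and all 3 of its probes passed in both comparisons. Slc25a20 did not pass in fat on the probe used, and its dimmer probe passed in LU against ND (-0.35 ± 0.11).

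Of the enzymes of the mitochondrial spiral, Acads, Acadvl, Eci1 and Echs1 fell on HFD and rose on LU against HFD, 2 comparisons that share the HFD arrays. Acadl (0.04 ± 0.11 and -0.15 ± 0.11) and Acadm (0.01 ± 0.06 and 0.10 ± 0.06) did not pass. In LU against ND, Acads (0.04), Acadvl (-0.02), Echs1 (-0.19) and Eci1 did not pass. Acads, for short chains, had levels of 11.53, 11.45 and 11.73 on ND, 10.94, 11.04 and 11.16 on HFD and 11.59, 11.59 and 11.63 on LU. HFD lay below both other diets, with differences of -0.52 ± 0.09 against ND (adjusted p = 0.00109) and 0.56 ± 0.09 for LU against HFD (adjusted p = 0.00193). Its dimmer probe gave -0.51 ± 0.12 and 0.29 ± 0.12, the latter without passing. Acadvl, for very long chains, read 12.72, 12.62 and 12.73 on ND, 12.29, 12.33 and 12.32 on HFD and 12.63, 12.68 and 12.71 on LU. HFD again lay lowest on every array (-0.38 ± 0.06, adjusted p = 0.000758), and LU against HFD was 0.36 ± 0.06 (adjusted p = 0.00239), with a second probe at -0.46 ± 0.08 and 0.39 ± 0.08.

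Eci1, the isomerase that brings double bonds of unsaturated chains into line, stood at 13.03, 13.34 and 13.03 on ND, 12.48, 12.47 and 12.52 on HFD and 12.91, 12.95 and 12.87 on LU. The 3 diets did not overlap, and HFD was lowest, by 0.64 ± 0.09 below ND (adjusted p = 0.000323) with LU 0.42 ± 0.09 above HFD (adjusted p = 0.00655). Echs1 read 13.28, 13.28 and 13.32 on ND, 12.56, 12.84 and 12.84 on HFD and 13.09, 13.18 and 13.03 on LU. Here too HFD was lowest and ND highest: the differences were -0.54 ± 0.08 (adjusted p = 0.00076) and, for LU against HFD, 0.35 ± 0.08 (adjusted p = 0.0129), with -0.67 ± 0.13 and 0.59 ± 0.13 from the second probe. Without LU fat 2 the rise of Echs1 missed the threshold (0.31, adjusted p = 0.0538).

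Hadha stood at 8.56, 8.69 and 8.56 on ND, 8.37, 8.59 and 8.33 on HFD and 8.95, 8.87 and 8.81 on LU. LU lay above both other diets, by 0.45 ± 0.08 against HFD (adjusted p = 0.00403) and by 0.28 ± 0.08 against ND (adjusted p = 0.0303), and the latter was lost without ND fat 1 or 3 or LU fat 1 or 2 (adjusted p 0.0695 to 0.109). Hadhb read 12.91, 12.97 and 13.06 on ND, 13.03, 13.20 and 13.11 on HFD and 13.33, 13.40 and 13.21 on LU. It rose by 0.34 ± 0.08 on LU against ND (adjusted p = 0.00893), and LU against HFD was 0.20 ± 0.08 (adjusted p = 0.0665). Acaa2 passed in LU against ND (0.26 ± 0.09, adjusted p = 0.0489), but its other 3 probes gave -0.01 to 0.00, and the call was lost without ND fat 2 or 3, HFD fat 1 or 2 or LU fat 1 or 2 (adjusted p 0.0594 to 0.150). A dimmer Acaa2 probe passed at 0.27 ± 0.08 for HFD against ND and at -0.27 ± 0.08 for LU against HFD. Another passed at 0.24 ± 0.09 for HFD against ND. The probe used gave 0.08 ± 0.09 and 0.18 ± 0.09 for these comparisons without passing, so the probes disagree.

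The electron carriers Etfa and Etfb fell on HFD. Etfa read 15.001, 15.122 and 14.999 on ND, 14.81, 14.80 and 14.82 on HFD and 14.90, 14.77 and 14.86 on LU. It fell by 0.23 ± 0.06 on HFD against ND (adjusted p = 0.0144), and 2 other probes gave -0.31 ± 0.07 and -0.29 ± 0.07. Against ND the LU value was -0.20 ± 0.06 (adjusted p = 0.0373), lost without ND fat 2 or any 1 of the HFD or LU arrays (adjusted p 0.0531 to 0.131). Etfb fell by 0.35 ± 0.07 on HFD (adjusted p = 0.00414), and LU against HFD was 0.21 ± 0.07 (adjusted p = 0.0585), while its second probe passed at 0.21 ± 0.06. Etfdh did not pass on the probe used, whereas a dimmer probe gave -0.30 ± 0.08 on HFD and 0.54 ± 0.08 on LU against HFD.

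Of the peroxisomal members in fat, the thiolase Acaa1b stood at 13.06, 13.16 and 12.89 on ND, 13.38, 13.45 and 13.35 on HFD and 13.77, 13.70 and 13.75 on LU. The diets did not overlap and rose in the order ND, HFD, LU, by 0.36 ± 0.08 (adjusted p = 0.0044) and a further 0.34 ± 0.08 (adjusted p = 0.00877). Acaa1a, its near-identical neighbour, gave -0.09 ± 0.09 and 0.14 ± 0.09 and did not pass, nor did Ehhadh, Decr2 and Hsd17b4. Pdk4, Fgf21 and Acot1, which fell in liver, did not pass in fat. Their values for HFD against ND were 0.35 ± 0.16, 0.11 ± 0.11 and -0.02 ± 0.16. Pdk4 read 12.73, 13.48 and 13.31 on ND, 13.46, 13.55 and 13.55 on HFD and 13.54, 13.34 and 13.34 on LU, Fgf21 lay between 8.14 and 8.64 and Acot1 between 9.70 and 10.28.

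**Figure D2:**
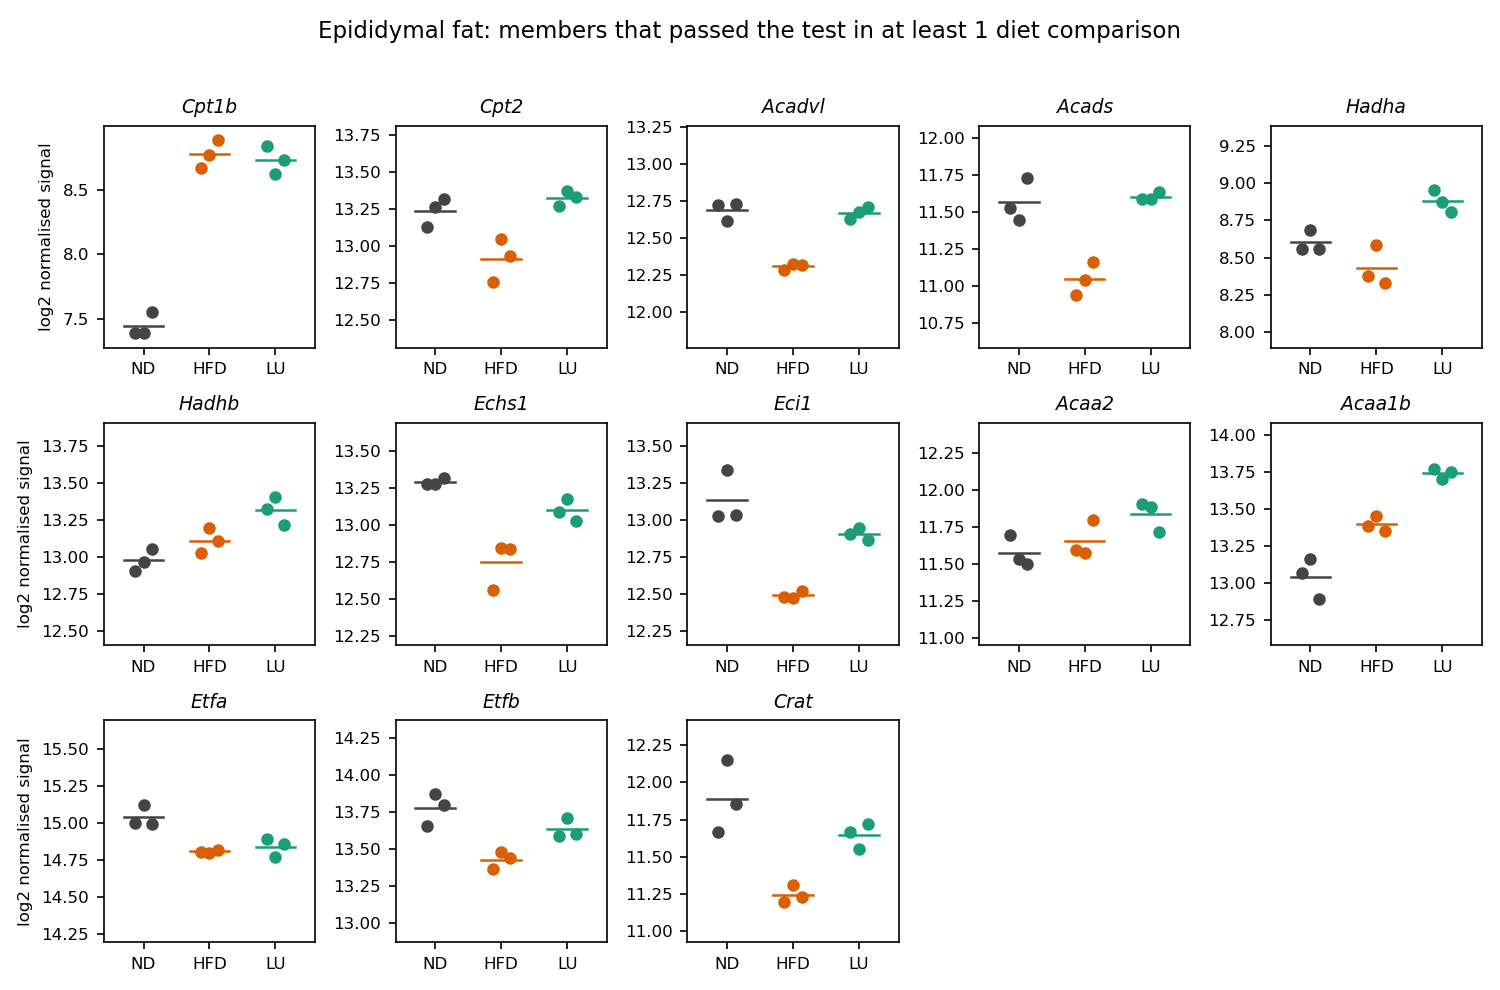
Log2 normalised signal (y axis) of the 13 members that passed the test in fat, 1 panel each, on the 3 arrays of ND, HFD and LU (x axis). Points are arrays, filled where detected, and lines are means, and each y axis has its own range. Cpt1b is higher on HFD and LU than on ND, Acaa1b rises over the 3 diets, and Cpt2, Acadvl, Acads, Echs1, Eci1 and Crat are lowest on HFD.

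Cell type markers moved with the diets in fat. Of 11 adipocyte markers 9 fell and 1 rose on HFD (median -0.42) and 7 rose and 0 fell on LU against HFD (median 0.32), with a summed signal of 274038 to 289174 on ND, 241722 to 261658 on HFD and 275499 to 286302 on LU. Of 11 macrophage markers 9 rose and 1 fell on HFD (median 1.73) and 10 fell on LU against HFD (median -0.76), with a summed signal of 20518 to 23346 on ND, 74700 to 99803 on HFD and 48723 to 58056 on LU. Itgax was undetected in ND fat. All 5 mesothelial markers fell on HFD, from 1990 to 2301 on ND to 1132 to 1663 on HFD and 653 to 750 on LU in summed signal, with Krt19 undetected on HFD and LU and Lrrn4 on LU. Of 6 brown and beige adipocyte markers tested 2 rose and 2 fell on HFD, and 3 rose and 1 fell on LU against HFD, with a summed signal of 3070 to 3546 on ND, 3006 to 3273 on HFD and 4597 to 5070 on LU and with Ucp1 undetected on HFD and LU. Their part in the members' differences was not tested. Other pathway genes in fat counted 0 higher and 8 lower of 13 mitochondrial, 0 and 9 of 15 peroxisomal, 1 and 1 of 4 ketone body and 2 and 10 of 25 PPAR alpha genes on HFD against ND. The largest were Eci3 (-1.69 ± 0.09), the thioesterase Acot4 (-1.61 ± 0.11), Acacb (-1.41 ± 0.16) and Cidea (-1.36 ± 0.18). On LU against HFD the counts were 8 and 0, 4 and 0, 0 and 1, and 10 and 1, led by Eci3 (0.93 ± 0.09), the fatty acid carrier Cd36 (0.83 ± 0.10), the coactivator Ppargc1a (0.77 ± 0.12) and the uncoupling protein Ucp3 (0.66 ± 0.18). On LU against ND they were 0 and 2, 1 and 6, 0 and 0, and 5 and 3, led by Acot3 (at least 1.61-fold lower), Acot4 (-1.18 ± 0.11), Cd36 (0.93 ± 0.10) and Cidea (-0.84 ± 0.18).

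Whether a diet difference differed between the tissues was tested itself, in one fit over all 18 arrays normalised together. For HFD minus ND, 15 of 29 members passed, 9 with the larger value in fat and 6 with the larger value in liver, where 13.3% and 18.1% of 10764 genes passed. In the first group the fat value minus the liver value was 2.31 ± 0.23 for Pdk4 (adjusted p = 4.11e-06) and 1.34 ± 0.25 for Fgf21. The others with both tissues measured were Cpt1b (1.29 ± 0.17), Hadha (0.78 ± 0.15), Acot1 (0.73 ± 0.20), Hadhb (0.39 ± 0.13) and Acaa2 (0.38 ± 0.12). The group also counts Cpt1a, undetected on HFD liver and all fat arrays, and Acaa1b, near the top of the signal range in liver, and for these 2 genes the values compare no measured changes of both tissues. The second group was Eci1 (-0.75 ± 0.12), Echs1 (-0.65 ± 0.13), Acads (-0.56 ± 0.12), Cpt2 (-0.31 ± 0.11), Acadvl (-0.29 ± 0.09) and Etfa (-0.24 ± 0.08). All 6 are mitochondrial, but so were 19 of the 29 members tested, and 5 of those were in the first group. Read against the 18.1% of all genes, 6 of 29 members is close to the background. The Echs1 difference rests on the brighter probe, since the other gave -0.27 (adjusted p = 0.245). The Cpt1b call was lost under 1 of 27 alternatives, with a lowest value of 0.21 and a highest adjusted p of 0.607. These count each of the 18 arrays left out, none of which ended the call. They also include the dimmer Cpt1b probe, which was undetected on every ND fat array. In liver, Echs1 read 12.77, 12.77 and 12.63 on ND and 12.88, 12.83 and 12.59 on HFD, Eci1 read 13.43, 13.33 and 13.41 on ND and 13.50, 13.39 and 13.44 on HFD, and Acads read 11.47, 11.66 and 11.54 on ND and 11.58, 11.68 and 11.44 on HFD. These liver groups overlapped for each of the genes, while in fat every HFD array lay below every ND array. Etfa and Cpt2 were the weakest of the calls, with an adjusted p of 0.0454 and 0.0487, and leaving out any 1 of 14 and 15 arrays respectively ended them (highest adjusted p 0.108 and 0.127). Hadhb lost its call without ND liver 1, HFD liver 2, ND fat 1 or 2 or HFD fat 2 or 3 (adjusted p 0.0584 to 0.0950). Acadvl lost its call without ND liver 2, HFD liver 1, ND fat 3 or HFD fat 1 (adjusted p 0.0503 to 0.0638), and Acaa2 without ND liver 3, HFD liver 2, ND fat 3 or HFD fat 3 (adjusted p 0.0525 to 0.0595).

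For LU minus HFD, 11 of 29 members passed and all 11 had the larger value in fat, where 7.22% of all genes passed in that direction and 8.43% in the other. The median member value was 0.29 against 0.01 over all genes. The differences were 1.27 ± 0.30 in Ehhadh, 0.85 ± 0.20 in Acot1, 0.84 ± 0.16 in Crat, 0.62 ± 0.12 in Eci1 and 0.57 ± 0.12 in Acads. The others were Decr2 (0.47 ± 0.12), Cpt2 (0.43 ± 0.11), Acaa1b (0.42 ± 0.10, with the liver signal near the top of the range and little able to move), Acadvl (0.42 ± 0.09), Etfdh (0.36 ± 0.11) and Acadm (0.29 ± 0.08). Crat fell in liver and rose in fat on LU against HFD, but each call was lost without any 1 of 4 arrays, and the rise in fat rests on 1 probe. Its test between tissues was lost under 1 of 27 alternatives (0.02, adjusted p = 0.962). Ehhadh, Acot1, Decr2 and Etfdh fell in liver without passing in fat. Acads, Cpt2, Acadvl, Eci1 and Acaa1b rose in fat without passing in liver. Acadm, the medium-chain dehydrogenase, passed in neither tissue alone: its liver levels were 15.22, 15.28 and 15.30 on HFD and 15.08, 15.09 and 15.06 on LU, and its fat levels 14.70, 14.70 and 14.72 on HFD and 14.73, 14.84 and 14.87 on LU. Etfdh lost its call without any 1 of 10 arrays, the 6 HFD and LU liver arrays, HFD fat 1 or 3 and LU fat 1 or 2 (adjusted p 0.0579 to 0.0903), Cpt2 without HFD fat 1 or LU fat 2 (adjusted p 0.0534 to 0.0545) and Acadm without LU fat 2 or 3 (adjusted p 0.0551 to 0.0570). Both tests of the tissues use the same HFD arrays.

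**Figure D3:**
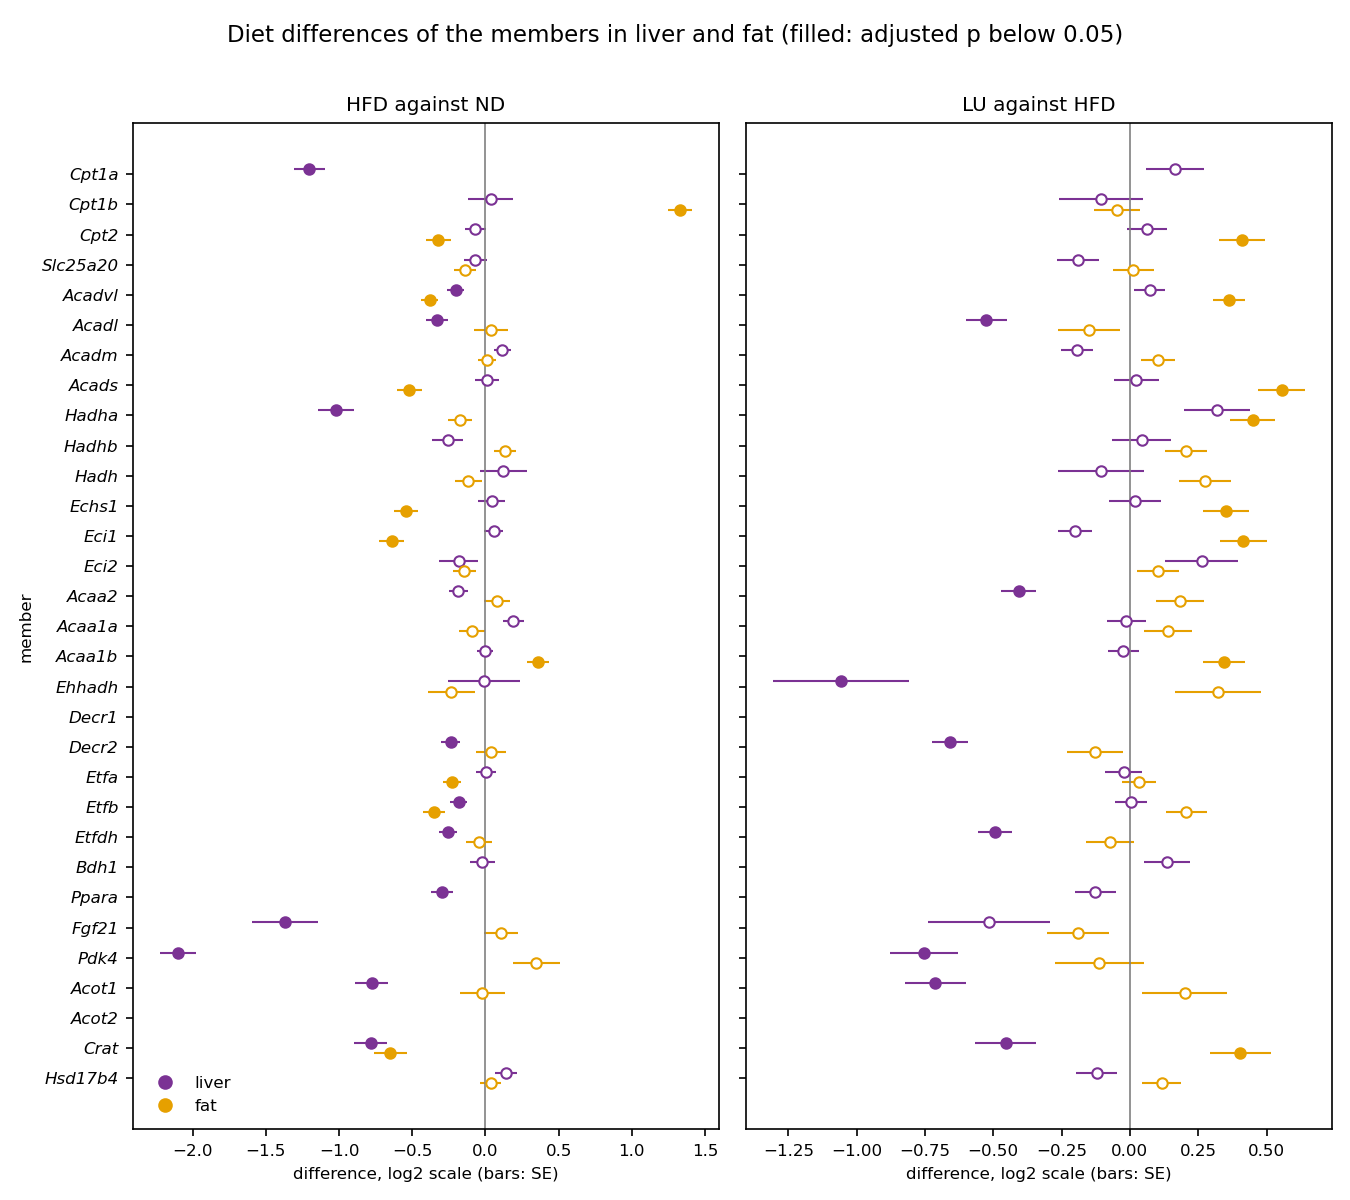
Difference on the log2 scale (x axes, bars are SE) for HFD against ND and LU against HFD in liver and fat for each member (y axis); filled points have an adjusted p below 0.05 and members without a point were not tested in that tissue. On LU against HFD the filled liver points lie below 0 and the filled fat points above 0; both panels share the HFD arrays.

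On the normal diet most members were lower in fat than in liver. Of 29 members 24 were lower in fat, 4 were higher and 1 (Etfa) did not pass, where 38.2% of all 10764 genes were lower and 47.4% higher, and the median member difference was -0.86 against 0.14 over all genes. Bdh1, Ppara and Cpt1a, undetected on all fat arrays, entered through liver, where they are high. Their place among the 24 carries that selection. Bdh1 was at least 90.6-fold lower in fat and Ppara at least 18.97-fold lower, both undetected there. Acot1 (-5.30 ± 0.14), Decr2 (-4.51 ± 0.08), Fgf21 (-4.14 ± 0.18), Ehhadh (-3.82 ± 0.21) and Acaa1b (-3.16 ± 0.07, with liver near the top of the signal range) followed, and Cpt1a was at least 3.04-fold lower. Pdk4 was higher in fat (1.19 ± 0.16), as were Hadhb (1.26 ± 0.09), Hadh (0.51 ± 0.16) and Echs1 (0.24 ± 0.09). Among the other mitochondrial members the values ran from -2.08 in Acaa2, -2.04 in Cpt1b, -2.03 in Etfdh and -1.88 in Hadha to -0.11 in Etfa, and the peroxisomal Acaa1a and Hsd17b4 gave -1.08 and -0.41. With each tissue normalised on its own the median of all genes moved to 0.92 and Acads, Crat and Eci2 gave 0.01, 0.09 and 0.02, and under cyclic loess Echs1 gave -0.02. On the dimmest probe Echs1 was lower in fat (-1.25) and Cpt2 gave 0.07, and the dimmer Hadh probe was undetected on ND in both tissues. Without ND liver 2 the Hadh value was 0.39 (adjusted p = 0.0525), and without ND liver 3 or ND fat 3 the Echs1 value was 0.20 to 0.23 (adjusted p 0.0533 to 0.0774).

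**Figure D4:**
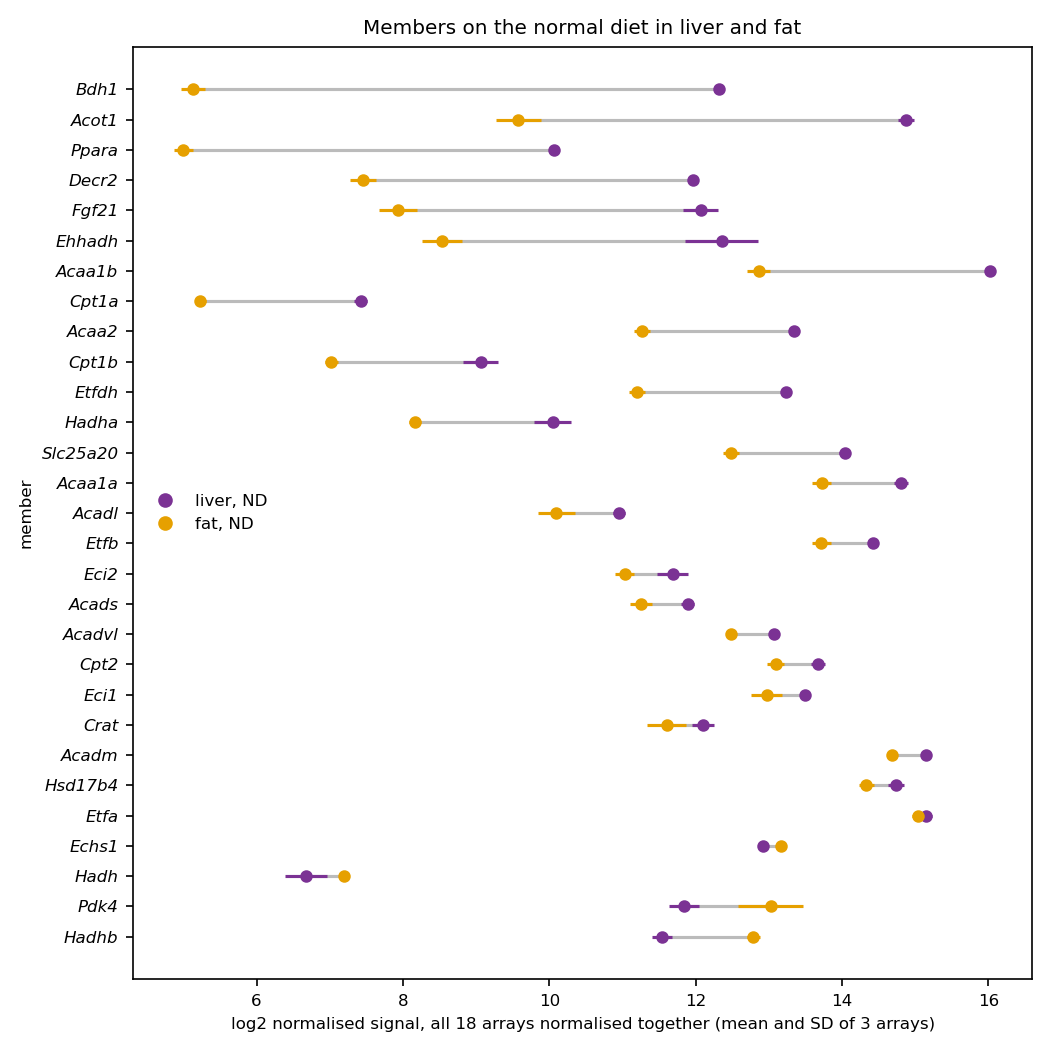
Log2 normalised signal on ND (x axis, mean and SD of 3 arrays, all 18 arrays normalised together) of each tested member (y axis) in liver and fat. Members are in the order of the difference, from Bdh1, which is at background in fat, to Hadhb, which is higher in fat; signals of different members are not comparable with each other.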

How the data were processed

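RNA from liver and epididymal fat was hybridised to 1-colour Illumina mouse bead arrays. The deposited probe table gives an average signal intensity per array, not normalised, and a detection p-value, per the file headers. A second table holds log2 values normalised by the authors, which served as an alternative. GenomeStudio 2009.2 and R 2.4.1 are named in the submitters' processing notes, with no step given to R.

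Signals were background-corrected against the detection p-values, given an offset of 16, quantile normalised and put on a log2 scale (neqc, limma 3.58.1 in R 4.3.3), within each tissue for the diet comparisons and over all 18 arrays for tissue comparisons. Probes with a detection p-value below 0.05 on all 3 arrays of at least 1 diet (diet and tissue in the joint fit) were kept, and each gene was read from its probe with the highest mean. For Acadvl and Acaa2 the probe of the liver fit differs from that of the fat fit and the joint fit. Gene names came from the platform annotation. 22883 probes had 1 gene, 13 had several and were not named, and 5825 probes of the authors' table had none. Groups were compared with lmFit and eBayes over all genes kept, at a Benjamini-Hochberg adjusted p of 0.05. The smaller group was bounded by the lowest detected signal where a gene was undetected. With 3 arrays a group, precision is limited by that number. The code was tested on simulated data.

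Members and lists were chosen with earlier results of these data known. Values on every array are given for members that passed with a difference of at least 0.5 (log2) between diets, or in the test between tissues, and for others where a result turned on them. At most 4 other pathway genes of at least 0.5 are named per comparison. Same-numbered arrays of different groups did not deviate together (correlations -0.16 to 0.19), so the numbers were not used as pairs. The alternatives were background correction, normalisation, probe filter, probe choice, moderation, the authors' values, the samples fitted, a replicate block and leaving out each array. Decr1, with no annotated probe, was not analysed here.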

Additional observations from a re-analysis of the deposited data

Results flagged for a closer look

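The 26 results below are diet differences that differed between fat and liver in the joint fit over 18 arrays (limma, adjusted p below 0.05), each given as the fat difference minus the liver difference on the log2 scale. For HFD minus ND, 15 members did. The value was higher in fat for Cpt1a (1.45), Cpt1b (1.29), Hadha (0.78), Hadhb (0.39), Acaa2 (0.38), Acaa1b (0.43), Fgf21 (1.34), Pdk4 (2.31) and Acot1 (0.73). It was lower in fat for Cpt2 (-0.31), Acadvl (-0.29), Acads (-0.56), Echs1 (-0.65), Eci1 (-0.75) and Etfa (-0.24). For LU minus HFD, 11 members did, all higher in fat: Cpt2 (0.43), Acadvl (0.42), Acadm (0.29), Acads (0.57), Eci1 (0.62), Acaa1b (0.42), Ehhadh (1.27), Decr2 (0.47), Etfdh (0.36), Acot1 (0.85) and Crat (0.84). Cpt1a was undetected on all fat arrays and on the HFD and LU liver arrays. Acaa1b was near the top of the signal range in liver and could hardly move there, so for these 2 genes the value does not compare measured changes of both tissues. Pdk4, Fgf21 and Acot1 fell in liver on HFD, and Echs1, Eci1, Acads and Cpt2 fell in fat on HFD. Crat fell in liver and rose in fat on LU against HFD, though each call was lost without any 1 of 4 arrays and the rise in fat rests on 1 probe. No cause of a difference between the tissues was tested.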

How the results depend on the processing

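The counts of members called stayed within 1.5 times of the reported ones under every alternative other than leaving out an array. With 1 array left out, the counts ran from 9 to 12 for HFD against ND in liver, 6 to 9 for LU against HFD, 12 to 14 for LU against ND, 10 to 11, 7 to 10 and 3 to 7 for the same comparisons in fat, 11 to 15 and 8 to 12 for the tissue tests of HFD minus ND and LU minus HFD, and 27 to 29 for fat against liver on ND. Of 112 gene results, 89 kept their call without any 1 array, and over 2553 pairs of gene and alternative 2372 kept it, 172 lost it and 9 took the other sign. On the dimmest probe these were Crat for LU against HFD in fat (-0.21), and Cpt2 (0.065) and Echs1 (-1.25) for fat against liver on ND. Crat for LU against HFD in liver (0.047) and Hadh for fat against liver on ND (-0.44) also did, but on probes undetected in both groups compared, which give no direction. Under cyclic loess Echs1 turned (-0.021), and with the tissues normalised separately Acads (0.0061), Crat (0.090) and Eci2 (0.021) did. The cause was not tested. Median scaling moved the median of all genes to 0.12 for HFD against ND in liver and to -0.15 for the tissue test of HFD minus ND, and it moved fat against liver on ND to 0.61. With the replicate number as a block, which the labels do not state to be a pairing, the liver counts were 10, 7 and 13. The fat counts were then 10, 9 and 4. With 1 mouse assumed to give both tissues, the counts across tissues were 11, 9 and 28. Dim probes such as Cpt1a, and bright ones such as Acaa1b in liver, limit what the arrays could show.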
